A study of Homo sapiens with 6 samples.

Results

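The 9 genes described here encode the factors that end a round of translation, take the ribosome off the mRNA, rescue ribosomes that have stalled, and bind the poly(A) tail. They are ETF1, GSPT1, ABCE1, PELO, HBS1L, MCTS1, DENR, PABPC1 and PABPC4. They were taken by gene symbol, and all 9 were among the 26364 genes of the deposited table. HEK293T is an established line derived from human embryonic kidney. All libraries, pre-IP ones included, came from cells treated with okadaic acid (200 nM, 3 h), which blocks the dephosphorylation of UPF1. UPF1 is the RNA helicase of nonsense-mediated mRNA decay (NMD). The p-UPF1 IP group (3 libraries, replicates 3, 6 and 9) holds RNA immunoprecipitated with an antibody against phosphorylated UPF1. The pre-IP group (3 libraries, replicates 1, 4 and 7) is named by its sample titles, but its antibody label is rabbit IgG, so the labels do not settle whether it is input RNA or a mock immunoprecipitation. The labels do not tell whether libraries of a group are separate cultures, and the p-values therefore reflect a library-to-library spread that may be technical only. The comparison asks which transcripts were over- or under-represented with p-UPF1. The members are compared with the other tested genes of the same table.

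When a stop codon enters the ribosome, the release factor eRF1 (ETF1) reads it and the GTPase eRF3 (GSPT1) helps it release the finished protein. ABCE1 then splits the ribosome into its subunits, and MCTS1 with DENR clears the last tRNA from the small subunit. PELO and HBS1L, relatives of eRF1 and eRF3, take over at ribosomes that stall or run to the end of a broken mRNA. Cytoplasmic poly(A)-binding protein (PABPC1, PABPC4) binds eRF3, and poly(A)-binding protein close to a stop codon is known to counter NMD, whereas UPF1 binds the same release factors where termination is slow. These genes therefore make the proteins that act at the step where NMD is decided, but the counts here measure their mRNAs, not the proteins. A count is the number of sequenced fragments assigned to a gene in a bulk library, so fewer cells that express a gene and less RNA per cell cannot be told apart.

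One member has a close copy whose counts changed its call when they were added to it. MCTS1 lies on the X chromosome, and MCTS2P is a copy without introns in the HM13 gene on chromosome 20. Their coding sequences are each 546 bases long and differ at 39 bases, an identity of 92.9%, and the longest stretch without a difference is 79 bases. The pair of stretches below, bases 379 to 408 of each coding sequence, is shown because it holds 7 of those differences and so is where fragments of both genes can be told apart. Capitals mark the bases that differ. They are C390G, T396A, T399A, A400G, T404C, G405A and A408G, with the MCTS1 base first, positions counted from 1 at the first base of the start codon, and the MCTS2P base last.
MCTS1: gcagtagatacCattgtTgcTAtcaTGgcA
MCTS2P: gcagtagatacGattgtAgcAGtcaCAgcG
In GRCh38 the MCTS1 stretch runs over exons 4 and 5 on the plus strand, chrX:120608341-120611022, with an intron in between. The MCTS2P stretch lies in its only exon on the plus strand, chr20:31547882-31547911. Of the 30-base words in the MCTS1 transcript, 10.2% also occur in MCTS2P, so most of MCTS1 can be placed uniquely. All of the words of MCTS2P occur in an annotated HM13 transcript as well. Other members also share words with annotated genes, among them ABCE1 (21.8% of its words), DENR (14.6%) and ETF1 (12.01%). For ABCE1 and ETF1 none of those words occur in genes with a row in the table, and for DENR 6.02% do. What this sharing does to the counts of ABCE1, DENR and ETF1 was not tested.

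Libraries held 905926 to 2057647 counts in p-UPF1 IP and 600244 to 1179369 in pre-IP. Small structured RNAs took 24.1% to 43.1% of counts in p-UPF1 IP and 63.2% to 75.2% in pre-IP, and TMM scaling (trimmed mean of M-values) assigned factors of 1.53 to 2.04 in p-UPF1 IP and 0.47 to 0.67 in pre-IP. Levels are given as CPM, counts scaled by the TMM-corrected library size. All 5 HEK293T-expressed genes of the marker list passed the filter on low counts and 0 of the 5 were called by edgeR (1 was higher at an unadjusted p under 0.05, DESeq2 called VIM higher, and limma-voom called 0), with VIM at 473 ± 77.3 CPM in p-UPF1 IP and 266 ± 57.5 CPM in pre-IP (SD, n = 3 each). Of 17 markers of blood, leukocytes, liver, fibroblasts, muscle and epidermis, 12 had 0 counts in every library, PTPRC, HBA1 and APOA1 among them, and 0 passed the filter. Together they took 0.000598% to 0.00133% of counts in p-UPF1 IP and 0.000333% to 0.00148% in pre-IP. The mRNA of UPF1 had 310, 236 and 241 counts in p-UPF1 IP and 21, 5 and 28 in pre-IP. It was higher in p-UPF1 IP with a log2 fold change of 1.70 and an adjusted p of 0.00461 (SE 0.38). The antibody binds the protein, so these counts do not measure how well the immunoprecipitation worked.

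Every one of the 9 genes passed the filter. MCTS1 was lower in p-UPF1 IP, 0 of the 9 were higher, and the other 8 did not pass the test (edgeR quasi-likelihood test, Benjamini-Hochberg adjusted p under 0.05). Of the 8070 tested genes 19.7% were called, 8.81% higher and 10.9% lower, so 1 called member in 9 is no more than that background. Of the tested protein-coding genes 17.2% were called, 9.11% higher and 8.05% lower. At an unadjusted p under 0.05, 1 member was higher (PABPC1) and 2 were lower (MCTS1 and DENR). The share of all tested genes at that unadjusted p is not given here. DESeq2 and limma-voom each called PABPC1 higher and MCTS1 lower. Of the 8070 tested genes DESeq2 called 826 higher and 957 lower, and limma-voom 651 higher and 1031 lower. PABPC1, MCTS1 and DENR were also the members whose groups did not overlap in CPM, a state met by 39.7% of all tested genes (21.9% higher, 17.7% lower). The median log2 fold change of the 9 genes was -0.12, against 0.10 over all tested genes, and 8 of the 9 lay within 1 of 0 on the log2 scale. Without TMM, with library totals alone, the median of all tested genes became 1.63 and that of the members 1.39. ETF1, ABCE1, PELO, HBS1L and DENR then turned positive, 6 members were called higher (60.4% of all tested genes were) and 0 lower (1.93%). Every change below is relative to the TMM scale.

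**Figure D1:**
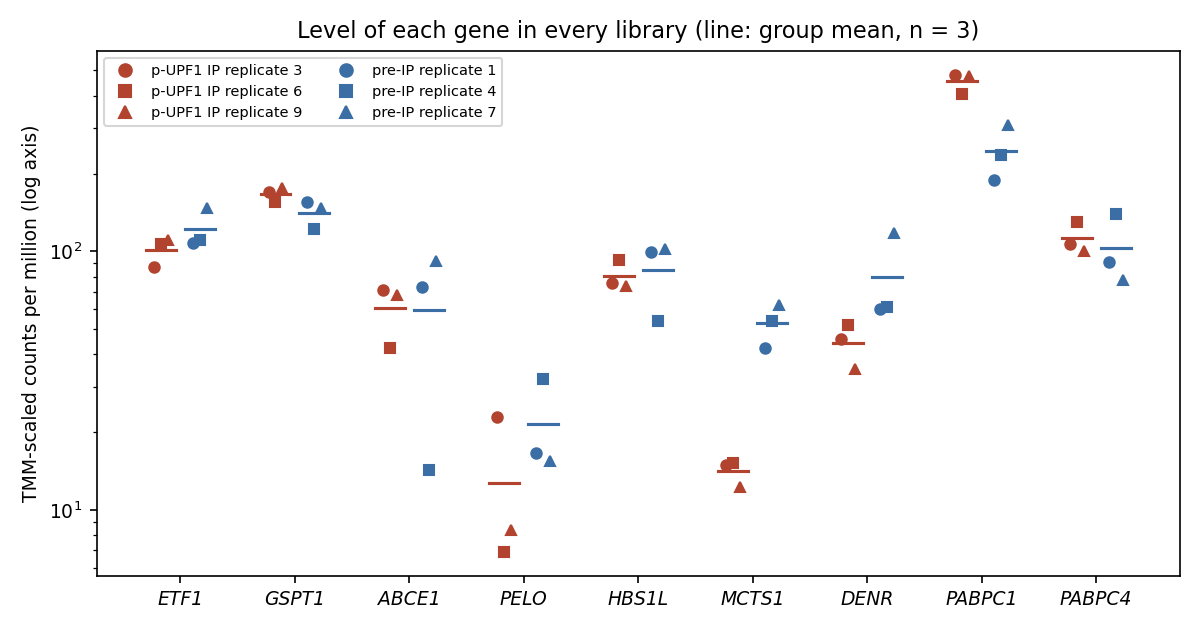
TMM-scaled CPM (log axis) of the 9 genes, with p-UPF1 IP left of pre-IP for each gene. Points are the 3 libraries of a group and lines their mean. The groups stand apart for PABPC1, which is higher in p-UPF1 IP, and for MCTS1 and DENR, which are lower.

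ETF1 mRNA, for the factor that recognises all 3 stop codons, was not called in either direction. It had 86.7, 107 and 111 CPM in p-UPF1 IP and 107, 111 and 147 CPM in pre-IP. The groups overlap, since p-UPF1 IP replicate 9 lay above pre-IP replicate 1. The log2 fold change was -0.27 (SE 0.29, 95% interval -0.87 to 0.33, adjusted p = 0.550), from 776 counts in p-UPF1 IP and 200 in pre-IP. GSPT1, the GTPase partner, had 170, 155 and 176 CPM in p-UPF1 IP and 155, 122 and 147 CPM in pre-IP. The lowest p-UPF1 IP library and the highest pre-IP library were almost level, and the log2 fold change of 0.23 (SE 0.28, 95% interval -0.35 to 0.81, adjusted p = 0.599) did not pass. GSPT2, a retrogene of GSPT1 with 90.1% identical coding bases over the aligned part, had 0 counts in all 6 libraries, so no counted fragment was assigned to the copy.

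ABCE1, the ATPase that splits the ribosome after termination or rescue, averaged 60.3 ± 15.7 CPM in p-UPF1 IP and 59.6 ± 40.3 CPM in pre-IP (SD, n = 3 each). Its libraries spread the most in pre-IP, where replicate 4 had 14.3 CPM from 4 counts and the other two had 72.9 and 91.6 CPM. With that spread the log2 fold change was -0.07 (SE 0.43, 95% interval -0.97 to 0.83, adjusted p = 0.923). Exons of ABCE1 share 469 bases with ANAPC10 and 276 bases with OTUD4 on the opposite strand, and the strand setting of the counting is not given in the sources used here, so reads of those bases cannot be told apart.

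MCTS1 and DENR, partners in one complex that acts on the small subunit after ABCE1, were the lowest of the members relative to pre-IP, and MCTS1 alone passed the test. MCTS1 had 14.97, 15.29 and 12.30 CPM in p-UPF1 IP and 42.2, 53.7 and 62.2 CPM in pre-IP. Every p-UPF1 IP library was below every pre-IP library by a wide margin, from 113 counts in p-UPF1 IP and 84 in pre-IP. The log2 fold change was -1.87 (SE 0.41, 95% interval -2.74 to -1.01, adjusted p = 0.00424), a level 0.273 of that in pre-IP, and it placed MCTS1 at percentile 5.46 of all tested genes. The call was kept when each library was left out in turn (adjusted p 0.00489 to 0.0309). It was lost with library totals alone (log2 fold change -0.34, adjusted p = 0.544), when the length trend described further on was removed (-0.94, adjusted p = 0.141), and when MCTS2P was added to it (-0.69, adjusted p = 0.185). DENR had 45.8, 52.1 and 35.2 CPM in p-UPF1 IP and 60.1, 60.9 and 117 CPM in pre-IP. The groups did not overlap, but pre-IP replicate 7 stood well above the other two, and the log2 fold change of -0.85 (SE 0.35, 95% interval -1.59 to -0.11) did not pass (adjusted p = 0.0984). Leaving out pre-IP replicate 7 gave the highest adjusted p, 0.464, and leaving out pre-IP replicate 1 the lowest, 0.0605.

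On the TMM scale the copy MCTS2P had a fitted change of opposite sign to that of MCTS1, but not one past the threshold. MCTS2P had 74, 49 and 42 counts in p-UPF1 IP and 0, 0 and 8 in pre-IP. Both pre-IP zeros are in libraries in which MCTS1 had 33 and 15 counts. The fitted log2 fold change of 2.09 (SE 0.88, adjusted p = 0.103) did not pass. It passed in 5 of 19 alternatives, namely library totals alone (adjusted p = 0.00185), the length trend removed (0.0170), no filter (0.0245), limma-voom (0.0194) and the fit without pre-IP replicate 7 (0.00371), the pre-IP library with MCTS2P counts. Of the counts of both genes, MCTS2P took 60.2%, 53.8% and 65.6% in p-UPF1 IP. Its part was 18.2% in pre-IP replicate 7 and 0% in pre-IP replicates 1 and 4, where a count of 0 (a floor of 3 counts) allows up to 9.09% and 20.0%. Added together, the pair had 35.5 ± 2.24 CPM in p-UPF1 IP and 57.3 ± 17.2 CPM in pre-IP (SD, n = 3 each; 278 and 92 counts). HM13, whose exons cover all of MCTS2P on the same strand, did not pass (0.19 on the log2 scale with an SE of 0.32, adjusted p = 0.723). Which of MCTS1, MCTS2P and HM13 the fragments of the MCTS2P row came from was not tested, since the table holds no positions within genes.

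**Figure D2:**
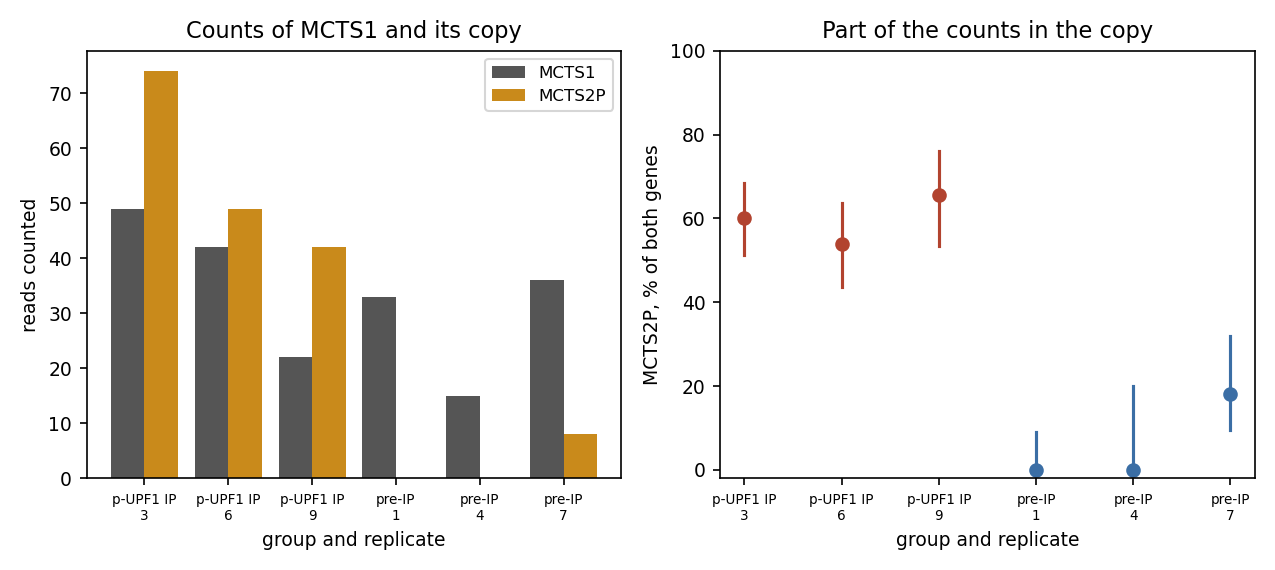
Left, counts of MCTS1 and of its copy MCTS2P as bars for each library, p-UPF1 IP left of pre-IP; right, the part of the pair's counts in MCTS2P (%) with Wilson 95% intervals or, at 0, the limit that a count of 0 allows. MCTS2P holds 53.8% to 65.6% of the pair's counts in the p-UPF1 IP libraries and has a count in only 1 pre-IP library, replicate 7.

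PELO and HBS1L, which recognise stalled ribosomes, did not differ beyond their spread. PELO was the member with the fewest counts, 75, 19 and 15 in p-UPF1 IP and 13, 9 and 9 in pre-IP. Scaled, this gave 22.9, 6.92 and 8.39 CPM in p-UPF1 IP and 16.6, 32.2 and 15.6 CPM in pre-IP, so p-UPF1 IP replicate 3 was above 2 of the 3 pre-IP libraries. The log2 fold change was -0.65 with the widest interval of the 9 genes (SE 0.64, 95% interval -2.01 to 0.71, adjusted p = 0.514). It was -1.42 without p-UPF1 IP replicate 3 and -0.28 without pre-IP replicate 4, not past the threshold in either. PELO shares 475 exon bases with ITGA1 on the same strand, and ITGA1, an integrin subunit, had 32, 22 and 12 counts in p-UPF1 IP and 0 in each pre-IP library, at least 4.62-fold higher in p-UPF1 IP on the TMM scale, and at least 12.5-fold with library totals alone, against a floor of 3 counts over the pre-IP group. HBS1L had 75.7, 92.5 and 73.8 CPM in p-UPF1 IP and 99.8, 53.7 and 102 CPM in pre-IP. Its pre-IP libraries lie on both sides of the p-UPF1 IP ones, and the log2 fold change was -0.12 (SE 0.31, 95% interval -0.78 to 0.55, adjusted p = 0.831).

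PABPC1, the main cytoplasmic poly(A)-binding protein and the most counted of the 9 genes, was the highest member relative to pre-IP and ended just short of the threshold. It had 482, 407 and 477 CPM in p-UPF1 IP and 188, 236 and 308 CPM in pre-IP, from 3547 and 391 counts. Every p-UPF1 IP library was above every pre-IP library. The log2 fold change was 0.90 (SE 0.32, 95% interval 0.23 to 1.57, adjusted p = 0.0543), at percentile 75.9 of all tested genes. It passed in 9 of the 20 alternatives, among them DESeq2 (adjusted p = 0.0145), the replicate block (0.0234), limma-voom (0.0446) and the fit without pre-IP replicate 7 (0.0461). Leaving out pre-IP replicate 1 gave an adjusted p of 0.190. PABPC3, a retrogene with 95.6% identical aligned coding bases, had 8, 1 and 2 counts in p-UPF1 IP and 0, 0 and 1 in pre-IP. Of the 30-base words of PABPC1, 30.3% also occur in other annotated genes, and 17.3% in genes with a row in the table, most of these in PABPC3. How the authors' counting treated fragments from such words is not known here. PABPC4, a paralog made at lower levels, had 107, 130 and 101 CPM in p-UPF1 IP and 90.8, 140 and 77.8 CPM in pre-IP. The groups overlap, and the log2 fold change was 0.17 (SE 0.31, 95% interval -0.48 to 0.81, adjusted p = 0.745). The small nucleolar RNA SNORA55 lies within PABPC4 without sharing exon bases and had 2845 counts in p-UPF1 IP and 994 in pre-IP (log2 fold change -0.93, SE 0.36, adjusted p = 0.0742), so the intron-encoded RNA and its host had values of opposite sign, neither past the threshold.

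**Figure D3:**
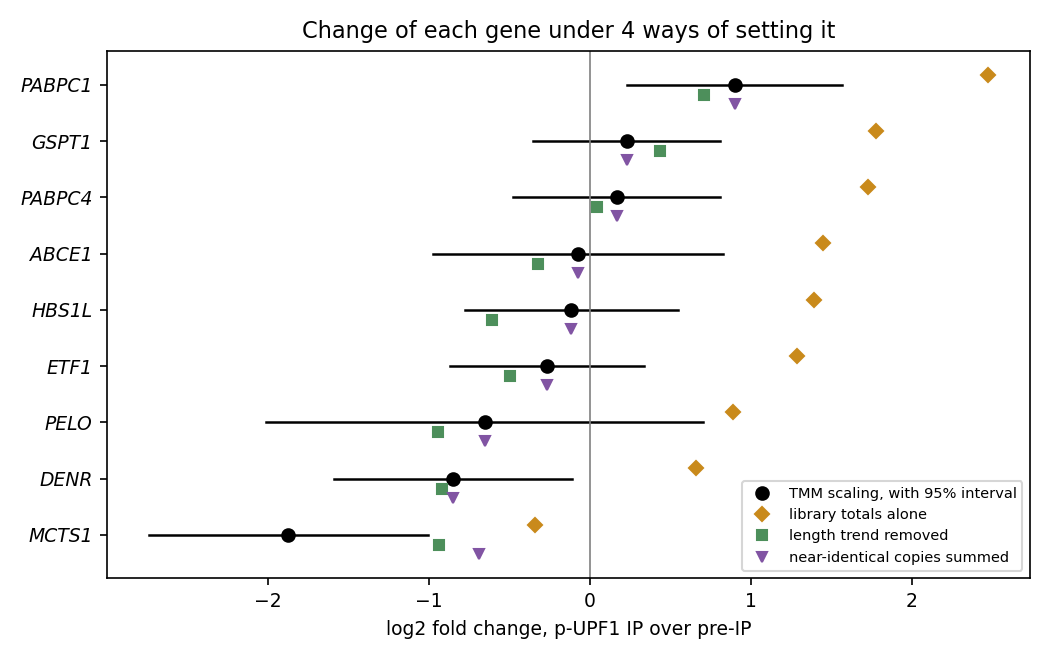
Log2 fold change, p-UPF1 IP over pre-IP, of the 9 genes: black points are the TMM values with 95% intervals (edgeR), and coloured points the values with library totals alone, the length trend removed and copies summed. On the TMM scale only MCTS1, at -1.87, passed the adjusted threshold; the intervals of DENR and PABPC1 leave out 0 but their adjusted p was 0.0984 and 0.0543, and the other 6 intervals span 0.

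Within p-UPF1 IP and per kilobase of the representative transcript, PABPC1 was the most abundant of the 9 mRNAs at 131 CPM per kb. GSPT1 followed at 85.1, but on its longest annotated coding transcript, 7105 bases against 1962, it comes to 23.5. PABPC4 had 36.9 ± 4.98 and ETF1 27.1 ± 3.45 CPM per kb. DENR (16.0 ± 3.07), ABCE1 (15.37 ± 4.002) and MCTS1 (13.9 ± 1.61) followed within their spread of each other. HBS1L (11.3 ± 1.43) had a lower mean but overlapped ABCE1 and MCTS1 in spread, and PELO was lowest at 2.93 ± 2.03 (SD, n = 3). In pre-IP the top and the bottom of this order were alike, with GSPT1 at 71.9 (19.9 on the longest transcript), PABPC1 at 70.0 ± 17.2 and PELO at 4.94 ± 2.15 CPM per kb. MCTS1 stood elsewhere, at 51.8 ± 9.85 CPM per kb, above PABPC4 (33.7 ± 10.7), ETF1 (32.5 ± 5.83), DENR (28.7 ± 11.9), ABCE1 (15.2 ± 10.3) and HBS1L (11.89 ± 3.804). PABPC4, ETF1 and DENR did not differ beyond their spread there.

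Ratios between partners do not depend on how libraries are scaled. The log2 ratio of MCTS1 to DENR was -1.60, -1.76 and -1.50 in p-UPF1 IP and -0.50, -0.18 and -0.91 in pre-IP. All 3 p-UPF1 IP libraries were below all 3 pre-IP libraries, a difference of -1.09 (exact permutation test, two-sided, p = 0.1, and 0.2 after adjustment over the 4 ratios). With MCTS2P added to MCTS1 the difference was 0.13 (exact p = 0.7), so its sign rests on how the copy is counted. The ratio of ETF1 to GSPT1 averaged -0.72 ± 0.23 in p-UPF1 IP and -0.22 ± 0.27 in pre-IP (SD, n = 3 each; difference -0.50, exact p = 0.1, adjusted 0.2), with every p-UPF1 IP library below every pre-IP library, the nearest at -0.53 in p-UPF1 IP and -0.52 in pre-IP. PABPC4 to PABPC1 averaged -2.02 ± 0.32 in p-UPF1 IP and -1.26 ± 0.64 in pre-IP, with overlap (difference -0.76, exact p = 0.2, adjusted 0.267). PELO to HBS1L averaged -2.84 ± 1.02 in p-UPF1 IP and -1.96 ± 1.09 in pre-IP (difference -0.88, exact p = 0.4, adjusted 0.4). That difference was -1.44 without p-UPF1 IP replicate 3 and -0.25 without pre-IP replicate 4. With 3 libraries a group no ratio can go below an exact p of 0.1.

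**Figure D4:**
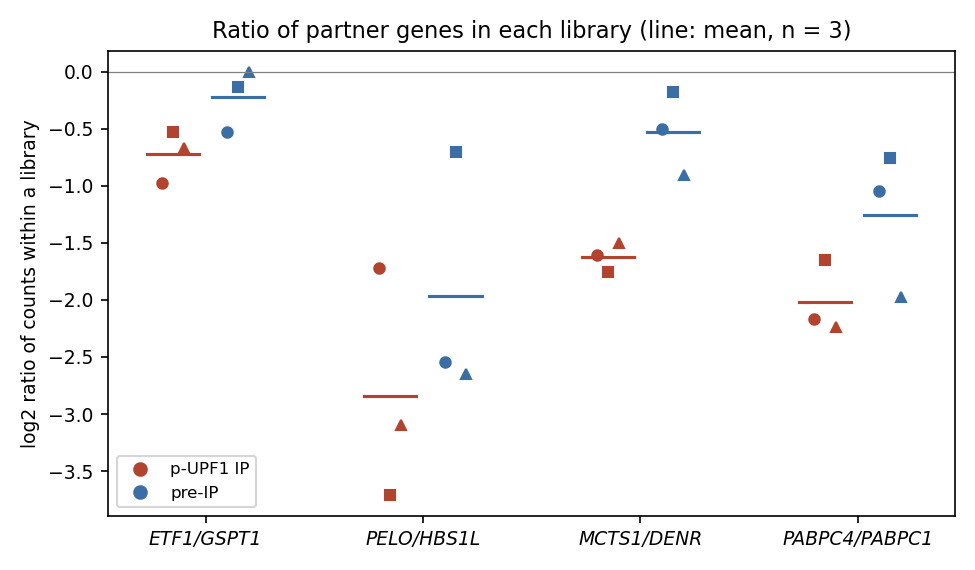
Log2 ratios of the counts of partner genes within each library (count plus 0.5), p-UPF1 IP left of pre-IP. Points are libraries and lines are means; for MCTS1 to DENR and ETF1 to GSPT1 the groups do not overlap.

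As a share of all counts, before any TMM scaling, the 9 genes together took 0.171%, 0.150% and 0.209% in p-UPF1 IP (Wilson 95% intervals 0.166% to 0.177%, 0.145% to 0.156% and 0.200% to 0.219%). In pre-IP they took 0.0552%, 0.0383% and 0.0654% (0.0511% to 0.0596%, 0.0337% to 0.0436% and 0.0604% to 0.0708%). The means were 0.177% ± 0.0300 in p-UPF1 IP and 0.0530% ± 0.0137 in pre-IP (SD, n = 3 each), a ratio of 3.34. All protein-coding genes together took 64.6% ± 9.54 in p-UPF1 IP and 31.4% ± 6.31 in pre-IP, a ratio of 2.06. Within protein-coding counts the share of the 9 genes was 0.273% ± 0.00580 in p-UPF1 IP and 0.168% ± 0.0209 in pre-IP, a ratio of 1.63. PABPC1 made up 43.4% ± 2.57 of the members' counts in p-UPF1 IP and 26.7% ± 3.56 in pre-IP. MCTS1 made up 1.36% ± 0.182 in p-UPF1 IP and 5.81% ± 0.727 in pre-IP.

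Over the tested protein-coding genes, shorter transcripts were lower in p-UPF1 IP and longer ones higher, and MCTS1 is short. The representative MCTS1 transcript has 1018 bases, the shortest of the 9 and at percentile 3.97 of tested protein-coding genes, and the longest, HBS1L, has 7163. Of 467 tested protein-coding genes under 1200 bases, 41.5% were lower in p-UPF1 IP, 0.857% were higher and the median log2 fold change was -1.16. Of 1298 genes of 3000 to 4000 bases, the class of ETF1, ABCE1, PABPC1 and PABPC4, 5.32% were lower, 7.16% higher and the median was 0.20. Of 1538 genes of 6000 bases or more, which include HBS1L, 2.67% were lower, 18.9% higher and the median was 0.58. The interquartile range of the shortest class was -1.73 to -0.43, so MCTS1 at -1.87 lay just below that range, and HBS1L at -0.12 lay just below that of the longest class, -0.05 to 1.32. The part of length, or of fragment recovery, in the MCTS1 value was not tested beyond the fit with the length trend removed.

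**Figure D5:**
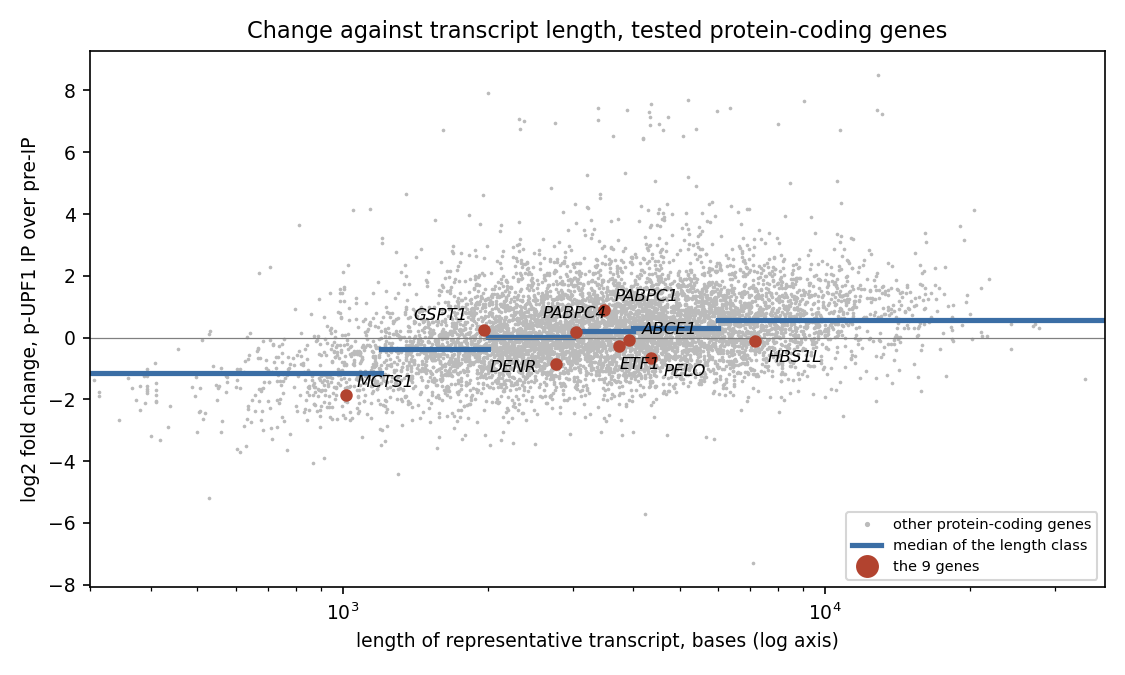
Log2 fold change, p-UPF1 IP over pre-IP, against the length of the representative transcript (log axis) for the tested protein-coding genes in grey and the 9 genes in red, with the median of each length class as a blue line. The class medians climb from -1.16 under 1200 bases to 0.58 at 6000 bases or more, and MCTS1 is the shortest of the 9.

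The annotated transcripts differ in features that bear on NMD. The annotation (GENCODE 29) lists 7 NMD-type transcripts among the 107 transcripts of the 9 genes, in 5 of them: ETF1, ABCE1, HBS1L, PABPC1 and PABPC4. The principal transcripts of PABPC1 and PABPC4 have an exon junction after the stop codon, 1 and 13 bases past it, and those of the other 7 have none. A junction so close to the stop codon is not a feature known to trigger NMD, which needs one farther downstream. In the principal transcripts the stretch after the stop codon is 4901 bases long in HBS1L, 2206 in ETF1 and in PELO, 1986 in DENR and 1606 in ABCE1, and 215 to 445 in MCTS1, PABPC4, GSPT1 and PABPC1. For GSPT1 this depends on the transcript, since in its longest coding transcript the stretch has 4991 bases. MCTS1, the member called lower, has the shortest stretch in its principal transcript and in its longest one (48 bases). Its principal transcript is also the shortest of the 9. PABPC4, GSPT1 and PABPC1, with 320 to 445 bases, had log2 fold changes of 0.17, 0.23 and 0.90. The members with longer stretches were at -0.85 (DENR) to -0.07 (ABCE1). Whether the length of this stretch bears on the values was not tested. Of the stop codons, 3 of the 9 principal transcripts end in UAA (GSPT1, PELO, PABPC1), 3 in UAG (ETF1, ABCE1, PABPC4) and 3 in UGA (HBS1L, MCTS1, DENR). Gene-level counts do not separate transcripts, so no transcript was measured on its own.

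Other genes of these pathways were read from 3 lists. Of 54 tested genes 16.7% were called, 7 higher and 2 lower, next to 19.7% of all tested genes (8.81% higher, 10.9% lower). In the ribosome rescue and quality control list, 5 of 26 tested genes were higher by edgeR, 0 were lower and the median log2 fold change was 0.72. At an unadjusted p under 0.05, 10 were higher and 1 lower. The share of all tested genes at that unadjusted p is not given here, for this or the other lists. DESeq2 called 5 higher and 0 lower, and limma-voom 4 higher and 1 lower (RNF14, named after its value was seen, adjusted p = 0.0280). Over the 8070 tested genes DESeq2 called 826 higher and 957 lower, and limma-voom 651 higher and 1031 lower. The 5 genes that edgeR called were ASCC2 (2.34, SE 0.56, adjusted p = 0.00784), a subunit of the complex that splits collided ribosomes; NEMF (2.68, SE 0.76, adjusted p = 0.0203), which marks stalled nascent chains on the large subunit; and N4BP2 (1.87, SE 0.48, adjusted p = 0.0109), the relative of the nuclease that cuts mRNA at stalls in yeast and worms. In pre-IP replicates 1, 4 and 7, ASCC2 had 4, 2 and 5 counts, NEMF 6, 1 and 0, and N4BP2 14, 3 and 4. In p-UPF1 IP they had 268, 205 and 358 counts. ASCC2, NEMF and N4BP2 thus passed the filter on low counts only through p-UPF1 IP, and their fold changes rest on few pre-IP counts. GCN1, a sensor of collided ribosomes, was at 1.12 (SE 0.29, adjusted p = 0.0124), with 1333 counts in p-UPF1 IP and 127 in pre-IP. The fifth was USP10, a deubiquitinase of small-subunit proteins, at 1.11 (SE 0.36, adjusted p = 0.0362). Of these, ASCC2, NEMF and N4BP2 no longer passed without p-UPF1 IP replicate 3 or 9 (adjusted p up to 0.0618, 0.103 and 0.0759), GCN1 not without p-UPF1 IP replicate 3 (0.0756) and USP10 not without pre-IP replicate 4 or any p-UPF1 IP library (up to 0.127). With the length trend removed ASCC2 alone of the 5 still passed (2.26, adjusted p = 0.0162). The log2 fold changes of NEMF (2.27, adjusted p = 0.0640) and USP10 (0.99, 0.0781) were then close to those before, and those of N4BP2 (1.23, 0.105) and GCN1 (0.53, 0.249) were smaller. The 2 most counted genes of the list, GNB2L1 (the ribosomal scaffold RACK1) and VCP (the ATPase that extracts stalled chains), were at -0.02 (adjusted p = 0.977) and 0.70 (adjusted p = 0.120).

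Of the poly(A)-binding proteins and their regulators 16 were tested, 2 were higher, 2 were lower and the median was -0.36. ATXN2L, a relative of the PABP-binding protein ataxin-2, had 819 counts in p-UPF1 IP and 34 in pre-IP and was higher, with a log2 fold change of 2.38 and an adjusted p of 0.000649 (SE 0.40). MKRN1, an RNA-binding ubiquitin ligase that binds PABP, was lower at -1.58 on the log2 scale (adjusted p = 0.00913, SE 0.39, and 0.0589 as adjusted p without p-UPF1 IP replicate 9), and DAZAP1, an RNA-binding protein, was lower at -1.73 (SE 0.37, adjusted p = 0.00323). Both calls were lost with library totals alone, at -0.03 and -0.21. LARP1, a binder of poly(A)-binding protein and of ribosomal protein mRNAs, was at 0.87 (adjusted p = 0.0673). Of the other termination and recycling genes 12 were tested and 0 were called by edgeR, with a median of 0.13; at an unadjusted p under 0.05, 3 were higher and 2 lower, DESeq2 called 0 and limma-voom called 2 higher (DDX19A and MCTS2P). The most counted of them were DDX19A, a helicase whose yeast relative Dbp5 works with eRF1, and OGFOD1, a prolyl hydroxylase of the small subunit. DDX19A was at 1.67 (adjusted p = 0.0565) and OGFOD1 at -0.40 (adjusted p = 0.445). The adjusted p of DDX19A was under 0.05 without pre-IP replicate 1 or 4. It was 0.186, 0.116 and 0.150 without p-UPF1 IP replicates 3, 6 and 9. Without pre-IP replicate 7, where it had 0 counts, DDX19A was at 1.07 (adjusted p = 0.0771). With library totals alone the list medians were 2.25 for rescue, 1.151 for poly(A) and 1.64 for termination, against 1.63 for all tested genes.

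The 3 tested genes whose log2 CPM followed the mean of the 9 genes most closely over the 6 libraries were LPGAT1 (Pearson r = 0.989), MSMO1 (0.983) and VDAC3 (0.982). They were picked as the highest r among the 8070 tested genes. The mean of the 9 genes itself ranged only from 6.045 (p-UPF1 IP replicate 9) to 6.575 (pre-IP replicate 7) in log2 CPM. These r values are descriptions over 6 libraries that share one cell line and one scaling.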

How the data were processed

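The deposited table gives raw read counts per gene symbol for 6 libraries, which the authors made on hg19 using, per the submitters' processing notes, STAR 2.5.2b, cutadapt 1.15 and featureCounts (Subread 1.5.0p3). Per the labels' protocols, RNA was depleted of rRNA, ligated to adapters, amplified by PCR and selected for inserts above a minimum length, so short fragments and PCR copies enter the counts. No molecular identifiers are described, so intervals and floors cover counting error only. The sources used here do not give the strand setting or the treatment of multiply matching reads.

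Counts were filtered (filterByExpr, min.count 10), scaled by TMM and tested by the quasi-likelihood F-test in edgeR 4.0.16 under R 4.3.3, with Benjamini-Hochberg adjustment over 8070 tested genes and a threshold of 0.05. An SE is the log2 fold change divided by the square root of F. Of the 26364 genes 11319 had no count. The procedure was tested on simulated counts in which a random set of genes was changed, up or down. Those counts held no length trend and no shift in small structured RNAs between groups, so that test does not cover them. Ratios used a pseudocount of 0.5 and exact permutation tests (scipy 1.17.1). Symbols were matched to GENCODE 29 (GRCh38, while the table is on hg19) for lengths, overlaps and sequences.

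The members and gene lists were chosen with earlier results of these data known. Named genes were the 9 members, the called and the 2 most counted genes of each list, UPF1, the 3 genes most correlated with the members, and genes that can share reads with them. A named gene of the lists is not reported here, though the list counts include it. HM13, SNORA55, ANAPC10 and OTUD4 were added after their values were seen, as overlapping genes. Alternatives were other scalings, filters, DESeq2 1.42.0 and limma 3.58.1 (voom), a replicate block, copies summed, length or GC trends removed, and each library left out.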

Additional observations from a re-analysis of the deposited data

How the results depend on the processing

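The count of called members, 1 (MCTS1), became 2, with PABPC1 added, under upper-quartile scaling, no filter, DESeq2, limma-voom, small structured RNAs left out, a GC trend removed (chosen after seeing the data) and without pre-IP replicate 7. It was 6 with library totals alone, and 0 with the length trend removed or with copies summed. Leaving out a library gave 1 to 2. Calls over all genes, 1591, became 5030 with library totals alone and 945 with the length trend removed, and ranged from 791 (without p-UPF1 IP replicate 3) to 1628 (without pre-IP replicate 4); without p-UPF1 IP replicates 6 and 9 they were 950 and 908. Calls in the 3 other lists, 9, became 41 with library totals alone, 15 with no filter and 5 with the length trend removed, and ranged from 3 to 12 over libraries left out. Causes were not tested.

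Several signs turned. With library totals alone the log2 fold changes were 1.29 (ETF1), 1.45 (ABCE1), 0.89 (PELO), 1.39 (HBS1L) and 0.66 (DENR). With no filter ABCE1 was at 0.099 and HBS1L at 0.058. Over libraries left out ABCE1 ranged from -0.40 (without pre-IP replicate 4) to 0.30 (without pre-IP replicate 7), and HBS1L from -0.28 to 0.033 (the same replicates); PELO stayed negative, from -1.42 to -0.28. The MCTS1 to DENR difference became 0.13 with copies summed. Under the stricter filter PELO was not tested.

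The label numbers fall into triplets that hold 1 library of each group. Deviations from the group means correlated at 0.092 (3 with 1), 0.172 (6 with 4) and 0.102 (9 with 7), each library correlating best with its own triplet. Pairs from different triplets lay at -0.118 to 0.027. The labels do not say that the numbers pair the samples, so the main fit has no block and a block by triplet is given as an alternative. Whether the samples are paired was not tested further. With the replicate block 2 members were called, MCTS1 and PABPC1 (adjusted p = 0.0038 and 0.0234), ABCE1 was at 0.13, and 1656 genes were called in all. Depth limits PELO, MCTS1 and ABCE1 the most, with 31, 84 and 114 counts in pre-IP.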

Other observations

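Other genes of poly(A)-binding proteins were near the limit of detection. PABPC1L, known from oocytes, had 15, 15 and 8 counts in p-UPF1 IP and 0, 1 and 1 in pre-IP, a ratio of 10.8 relative to library totals (exact 95% interval 2.79 to 92.2, counting error only). On the TMM scale it had 4.84 ± 0.541 CPM in p-UPF1 IP and 1.77 ± 1.79 CPM in pre-IP (SD, n = 3 each). PABPC3 had a ratio of 6.24 to library totals (0.907 to 269), from 11 counts in p-UPF1 IP and 1 in pre-IP, and on the TMM scale 1.31 ± 1.05 CPM in p-UPF1 IP and 0.576 ± 0.998 CPM in pre-IP. PABPC4L had 27 counts in p-UPF1 IP and 13 in pre-IP, and the nuclear PABPN1 had 4 and 1. PABPC5, PABPC1L2A and PABPC1L2B had 0 counts in all 6 libraries. None of these passed the filter on low counts. How the authors' counting treated fragments shared between genes is not known here, so few counts need not mean low expression.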
